A study of Mus musculus with 6 samples.

Results

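A set of 10 basement membrane genes was followed in the livers of mice with and without intestinal Mttp. It held the collagen IV chains Col4a1, Col4a2 and Col4a5, the multiplexin collagens Col15a1 and Col18a1, the laminin chains Lama2, Lamb1 and Lamc1, and the linking proteins Nid1 (nidogen 1) and Hspg2 (perlecan). The genes were taken by symbol from the table of all pools, as 10 of its 40481 genes, and all 10 passed the filter on low counts. Mttp encodes the microsomal triglyceride transfer protein, which intestinal cells need to assemble chylomicrons. Control and Mttp-IKO mice were adult male littermates on a C57BL/6 background that carried the floxed Mttp allele (Mttp f/f) and Villin Cre ERT2, a tamoxifen-inducible Cre recombinase under the promoter of the gut epithelial gene villin. Mttp-IKO mice were given tamoxifen and controls, which the labels call wild type, were given vehicle, so that the agent and the deletion cannot be told apart. Both genotypes were then fed a methionine/choline-deficient (MCD) diet, a dietary model of liver inflammation and fibrosis, for 3 weeks and were fasted for 4 h before the livers were taken. Each genotype was represented by 3 pools of total liver RNA, each from 3 to 4 mice, sequenced after removal of ribosomal RNA. Since a pool averages its mice, the errors and p-values refer to the spread between pools and not between mice.

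The basement membrane is a thin sheet of extracellular matrix in which a network of type IV collagen and a network of laminin are held together by nidogen and perlecan. Laminins are trimers of an alpha, a beta and a gamma chain, and the common type IV collagen is a trimer of alpha1 and alpha2 chains. In the liver, arteries, portal veins and bile ducts have a continuous basement membrane, whereas the sinusoids have only a loose matrix in the space of Disse, and deposition of collagen IV and laminin along the sinusoid is a known feature of fibrosis. Sinusoidal endothelial cells and stellate cells are known as the main sources of collagen IV, laminin, nidogen and perlecan in this space, whereas collagen XVIII, the precursor of endostatin, is made in large part by hepatocytes.

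Col4a1 and Col4a2 lie head to head on chromosome 8 of GRCm38, Col4a1 at chr8:11198423-11312826 on the minus strand and Col4a2 at chr8:11312805-11449287 on the plus strand. Their windows of 250 bases before to 50 bases after the annotated start share 78 bases, chr8:11312777-11312854, given in capitals in the sequences of both windows (RefSeq, GRCm38.p6, 5' to 3' on each gene's own strand, chr8:11312777-11313076 for Col4a1 and chr8:11312555-11312854 for Col4a2). They are shown because the start sites of both genes lie in the shared stretch, and the levels of both genes are set side by side here.
Col4a1 window: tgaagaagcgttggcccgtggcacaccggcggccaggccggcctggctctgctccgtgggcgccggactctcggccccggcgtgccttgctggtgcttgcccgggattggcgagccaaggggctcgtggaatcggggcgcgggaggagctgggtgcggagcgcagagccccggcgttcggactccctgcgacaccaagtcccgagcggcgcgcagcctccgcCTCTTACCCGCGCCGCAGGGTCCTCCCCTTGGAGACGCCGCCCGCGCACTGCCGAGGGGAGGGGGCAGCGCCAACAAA
Col4a2 window: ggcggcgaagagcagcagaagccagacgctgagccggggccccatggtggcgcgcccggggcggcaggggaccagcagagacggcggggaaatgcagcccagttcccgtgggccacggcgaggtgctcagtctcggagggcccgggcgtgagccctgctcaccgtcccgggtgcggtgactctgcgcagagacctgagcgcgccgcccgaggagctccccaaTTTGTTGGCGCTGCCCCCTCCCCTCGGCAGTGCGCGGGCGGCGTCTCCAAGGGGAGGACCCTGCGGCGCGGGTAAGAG

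The capitals of one window are the reverse complement of those of the other, and the exons of the genes share 22 bases. Unless the strand was used in counting, reads there match both genes and are not unambiguous, and only unambiguous reads were counted.

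The multiplexins Col15a1 (chr4:47208161-47313167, plus strand) and Col18a1 (chr10:77052178-77166548, minus strand) are close relatives in protein structure and gave the widest contrast among the 10 genes. Their windows are shown because Col18a1 has 2 annotated starts 52825 bases apart, of which the downstream one is known for use in hepatocytes. Capitals mark GGGCGG or CCAAT on either strand, and a window without capitals holds neither. The windows are chr10:77166481-77166780 and chr10:77113656-77113955 for Col18a1 and chr4:47207762-47208061 for Col15a1. Windows were placed by RefSeq starts, whereas gene coordinates are those used in counting. The 2 differ for Col15a1, whose window ends before the gene as counted begins.
Col18a1 upstream window: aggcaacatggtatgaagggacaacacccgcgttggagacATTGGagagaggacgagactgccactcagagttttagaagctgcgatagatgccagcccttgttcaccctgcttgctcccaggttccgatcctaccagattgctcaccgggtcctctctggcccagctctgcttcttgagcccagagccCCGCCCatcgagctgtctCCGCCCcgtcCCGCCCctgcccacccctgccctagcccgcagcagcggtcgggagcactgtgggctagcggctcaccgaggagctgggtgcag
Col18a1 downstream window: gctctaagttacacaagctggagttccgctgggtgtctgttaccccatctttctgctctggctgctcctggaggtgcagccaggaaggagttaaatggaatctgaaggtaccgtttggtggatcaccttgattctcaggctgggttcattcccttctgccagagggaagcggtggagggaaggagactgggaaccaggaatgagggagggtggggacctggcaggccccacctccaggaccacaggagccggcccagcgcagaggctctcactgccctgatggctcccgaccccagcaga
Col15a1 window: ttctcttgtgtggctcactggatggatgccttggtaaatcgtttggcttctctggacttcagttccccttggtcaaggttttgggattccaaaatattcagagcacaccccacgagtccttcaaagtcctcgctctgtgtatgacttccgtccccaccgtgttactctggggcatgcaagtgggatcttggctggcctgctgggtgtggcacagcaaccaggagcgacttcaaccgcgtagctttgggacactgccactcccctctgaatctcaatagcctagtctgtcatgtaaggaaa

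Counts were per gene, so the reads of the Col18a1 starts were not separated. Windows were found for 9 of the 10 genes, Lamc1 being the exception. GGGCGG, the core of the binding motif of SP1 and related factors, was found on either strand in the windows of Col4a1, Col4a2, Col4a5, Lama2, Lamb1, Nid1 and Hspg2 and in the upstream window of Col18a1, and 35.66% of all 32851 windows of this length hold it. The only copy in the Col4a1 window lies in the bases shared with Col4a2 and is also a copy of the Col4a2 window. The Hspg2 window held 5 copies and that of Col15a1 held 0. The windows of Col15a1 and Lama2 do not contain the start of the gene as counted (chr4:47208161 and chr10:27619758). CCAAT was found in the windows of Col4a1, Col4a2, Col4a5, Lamb1 and Nid1 and in the upstream window of Col18a1 (37.41% of all windows). CAGAC, a short SMAD motif, was found once each in the windows of Col4a2, Col15a1, Lama2 and Lamb1 and in the downstream window of Col18a1 (49.59% of all windows). TATAAA, the AP-1 motif TGANTCA and TGNACTTTG, a hepatocyte nuclear factor 4 motif, were in none of these windows (13.62%, 7.81% and 1.41% of all windows).

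The pools held 25271585 to 36238734 reads on genes. Hepatocyte markers were abundant in every pool, with albumin (Alb) between 40131 and 132240 CPM, where CPM is the number of reads of a gene in every 1000000 reads of the pool, after TMM scaling. Liver Mttp did not check the labels, because the deletion is intestinal, and its level was 150.4 ± 52.2 CPM in control and 144.7 ± 16.0 CPM in Mttp-IKO pools (mean ± SD, n = 3 pools each here and throughout). Control pools 1 and 2 held RNA of striated muscle, with 97.4 and 778 CPM summed over 10 muscle genes against 1.01 to 1.64 CPM in the other pools. Mttp-IKO pool 3 stood apart in small noncoding RNAs, with 0.297% of its reads against 1.92 to 3.51% in the others. The number of the 10 genes that passed, and the adjusted p of those called, are given with and without each of these pools.

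Of the 10 genes, 5 fell in Mttp-IKO liver with an adjusted p under 0.05 (Col15a1, Lama2, Lamb1, Col4a1 and Hspg2) and 0 rose, whereas 4.01% of the 17287 genes tested changed, 3.09% downwards and 0.920% upwards (edgeR's quasi-likelihood test with Benjamini-Hochberg adjustment over all genes tested). By adjusted p, no gene of the 10 rose with DESeq2 or limma-voom either. At an unadjusted p under 0.05 in edgeR 0 were higher and 7 lower. Col18a1, which was higher, came close to that level, with an unadjusted p of 0.0549 in edgeR. Its unadjusted p was 0.0246 in DESeq2's Wald test and 0.0450 in limma-voom. In 7 of the 10 all Mttp-IKO pools were below all control pools, against 16.5% of all genes tested (31.0% when either order is counted). The median log2 fold change, Mttp-IKO against control, was -0.84 for the 10 genes and 0.0057 for all genes tested. The 5 calls were near the threshold and changed with the pools used. When control pool 1, control pool 3 or Mttp-IKO pool 2 was left out, 0 of the 10 genes passed (6 at an unadjusted p under 0.05 in each case), and 24, 21 and 0 of all genes passed. Without Mttp-IKO pool 1 only Lama2 passed, with 55 of all genes. Without control pool 2, with its muscle RNA, or without Mttp-IKO pool 3 the same 5 genes passed. The other 5 genes did not pass with any pool left out.

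**Figure D1:**
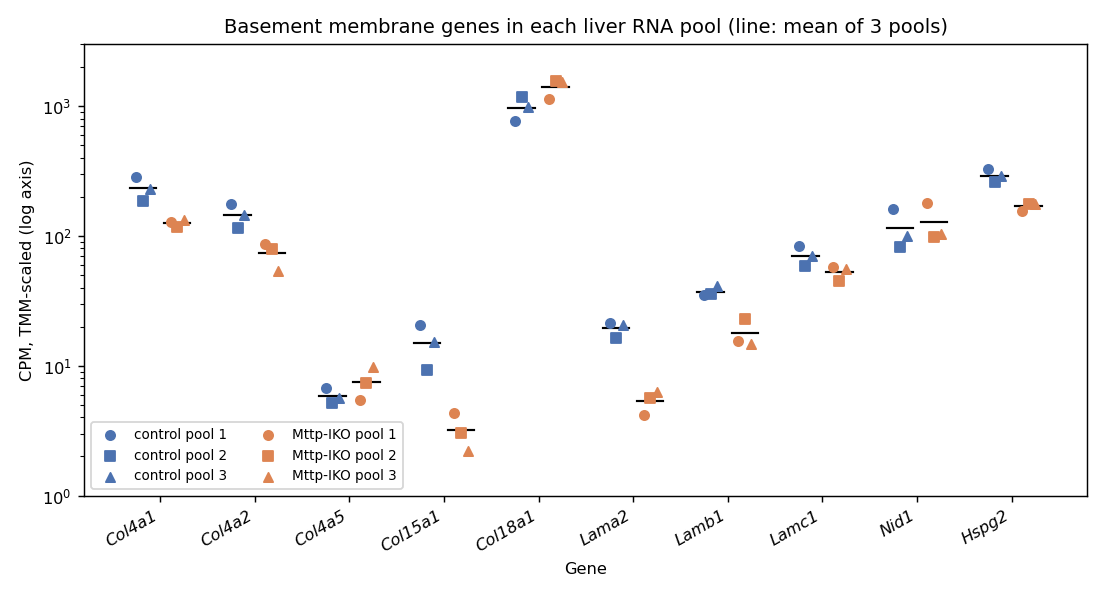
Level of each of the 10 genes in each pool, in TMM-scaled CPM on a log axis, with control pools in blue, Mttp-IKO pools in orange and the mean of 3 pools as a line. Mttp-IKO points lie below all control points for Col4a1, Col4a2, Col15a1, Lama2, Lamb1, Lamc1 and Hspg2, and the genotypes overlap for Col4a5, Col18a1 and Nid1.

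Col4a1 and Col4a2 encode the alpha1 and alpha2 chains that form the common type IV collagen network. Col4a1 was at 283, 186 and 227 CPM in control pools 1 to 3 and at 127, 116 and 132 CPM in Mttp-IKO pools 1 to 3. All Mttp-IKO pools were below the lowest control pool, and they were close to each other while the controls spread widely. Col4a1 fell 1.86-fold, from 232 ± 48.5 to 125 ± 8.05 CPM, or -0.89 ± 0.193 on the log2 scale (edgeR estimate ± standard error, here and in what follows, adjusted p = 0.0474). This call was at the edge of the threshold, with an adjusted p of 0.0503 when DESeq2's size factors replaced TMM and 0.0537 with limma-voom. In edgeR the adjusted p was 0.165 without control pool 1, 0.0324 without control pool 2 and 0.0464 without Mttp-IKO pool 3. It was 0.160 without control pool 3, 0.0946 without Mttp-IKO pool 1 and 0.169 without Mttp-IKO pool 2.

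Col4a2 was at 175, 114 and 144 CPM in control pools and at 86.1, 79.8 and 53.7 CPM in Mttp-IKO pools, again without overlap. Its log2 fold change of -0.98 (standard error 0.236, 95% interval -1.52 to -0.44) stood beside -0.89 for Col4a1, but its adjusted p of 0.0613 (edgeR) missed the threshold. It passed with total counts as the only scaling (0.0391), without a filter on low counts (0.0367) and in DESeq2's Wald test (0.00481).

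Since both chains enter the same trimer, their ratio was compared within each pool, which needs no scaling between pools. Reads per kilobase (kb) of Col4a1 over those of Col4a2 were 1.57, 1.58 and 1.53 in control pools and 1.43, 1.41 and 2.39 in Mttp-IKO pools. The control pools were nearly alike and Mttp-IKO pool 3 stood apart, with more Col4a1 per Col4a2. The mean log2 ratio was 0.64 ± 0.022 and 0.76 ± 0.43 (two-sided exact permutation p = 1), and the difference of 0.12 became -0.13 without Mttp-IKO pool 3.

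Col4a5 encodes the alpha5 chain, which in other tissues, kidney among them, joins alpha3 and alpha4 or alpha6. It lies on the X chromosome (chrX:141475385-141689234, plus strand), with the start of Col4a6 1343 bases away from its own. Col4a5 was at 6.72, 5.16 and 5.68 CPM in control pools and at 5.42, 7.37 and 9.86 CPM in Mttp-IKO pools, and the genotypes overlapped. Its log2 fold change was 0.36 (95% interval -0.22 to 0.95, adjusted p = 0.430, edgeR). Of the partner chains, Col4a3 had a log2 fold change of 0.44 (adjusted p = 0.425), Col4a4 of -0.10 (0.850) and Col4a6 of -0.95 (0.302), each at 0.648 to 3.88 CPM by genotype mean. Of the 3, 0 passed in edgeR, DESeq2 or limma-voom, and 0 had an unadjusted p under 0.05 in edgeR.

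Summed over the 6 collagen IV genes, the level per kb of gene length was 57.4 ± 11.8 CPM per kb in control and 31.2 ± 1.69 CPM per kb in Mttp-IKO pools, a ratio of 0.543. Col4a1 and Col4a2 made up nearly all of it in each pool. The share of Col4a5 in the sum was 1.44 to 1.66% in control pools and 2.44, 3.55 and 4.95% in Mttp-IKO pools. The shares of the genotypes did not overlap, although the level of Col4a5 itself did. They follow from the lower levels of Col4a1 and Col4a2 above and are not separate support for a change in Col4a5.

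Collagen XV and collagen XVIII, the products of Col15a1 and Col18a1, are multiplexins, nonfibrillar collagens with interrupted triple helices that carry an endostatin-like end. Col15a1 was at 20.6, 9.29 and 15.3 CPM in control pools and at 4.32, 3.02 and 2.22 CPM in Mttp-IKO pools, from 335 to 831 reads in control and 53 to 134 reads in Mttp-IKO pools. Control pool 2 was the lowest of the controls and was still above every Mttp-IKO pool. Col15a1 fell 4.71-fold, the largest change of the 10 genes (-2.24 ± 0.353 on the log2 scale, adjusted p = 0.0219, edgeR). When pools were left out singly, the log2 fold change ranged from -2.52 to -1.96 and its adjusted p from 0.0119 to 0.118 (0.0889 without control pool 1, 0.0119 without control pool 2 and 0.0352 without Mttp-IKO pool 3). The call was also lost without control pool 3 (0.0856), Mttp-IKO pool 1 (0.0613) or Mttp-IKO pool 2 (0.118).

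Col18a1 was at 766, 1174 and 974 CPM in control pools and at 1125, 1554 and 1525 CPM in Mttp-IKO pools. Mttp-IKO pool 1 lay within the range of the controls and the other Mttp-IKO pools above it. The means were 971 ± 204 and 1401 ± 240 CPM, with a log2 fold change of 0.53 (standard error 0.236, 95% interval -0.014 to 1.07, adjusted p = 0.228, edgeR), which did not pass the test. The lower end of this interval lies above the estimates of the 5 genes that fell. The same holds for the intervals of Col4a5 (lower end -0.22) and Nid1 (-0.57), so this is not particular to Col18a1.

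The multiplexins, which had the lowest and the highest log2 fold change of the 10 genes, were then compared with each other within pools. This ratio and that of Col18a1 to Col4a1 follow from the levels above and are not separate support for a contrast. Col18a1 exceeded Col15a1 in reads per kb by 33.6, 114 and 57.4 times in control pools and by 236, 466 and 620 times in Mttp-IKO pools. The genotypes did not overlap, and the mean log2 ratio was 2.76 higher in Mttp-IKO (5.92 ± 0.89 against 8.67 ± 0.72, two-sided exact permutation p = 0.1, which 3 against 3 pools cannot go below). The ratio of Col18a1 to Col4a1, a hepatocyte chain against a chain of sinusoidal and stellate cells, was 2.63, 6.13 and 4.16 in control pools and 8.61, 12.99 and 11.2 in Mttp-IKO pools. The mean log2 ratio was 1.41 higher in Mttp-IKO, again without overlap (exact permutation p = 0.1). With any 1 pool left out the differences were 2.33 to 3.22 for Col15a1 and 1.09 to 1.70 for Col4a1 as the second gene.

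**Figure D2:**
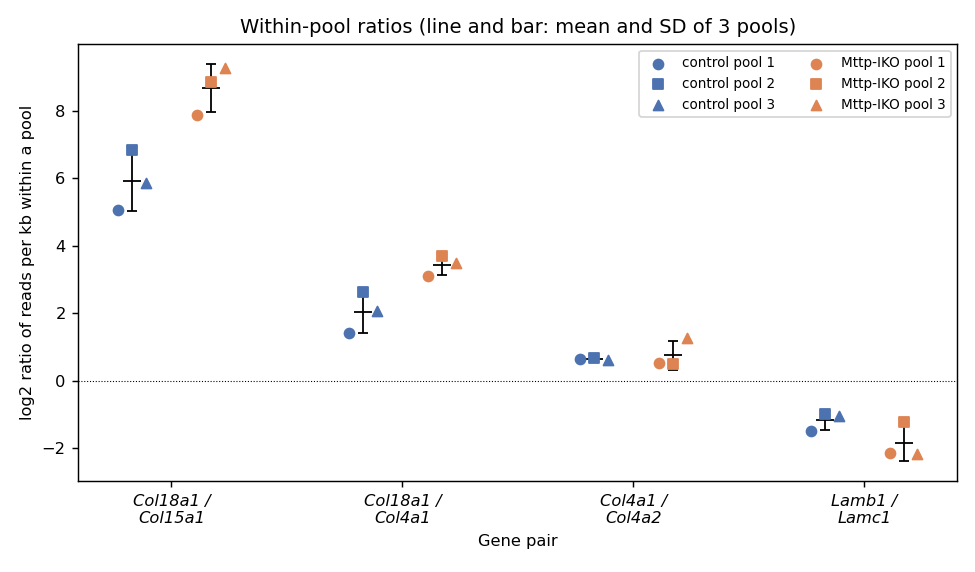
Log2 ratio of reads per kb between pairs of genes within each pool, with control pools in blue, Mttp-IKO pools in orange and the mean and SD of 3 pools as a line and bar. The ratios of Col18a1 to Col15a1 and to Col4a1 are higher in every Mttp-IKO pool than in any control pool, and those of Col4a1 to Col4a2 and of Lamb1 to Lamc1 overlap.

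Lama2 encodes the laminin alpha2 chain, best known from the basement membrane of skeletal muscle and peripheral nerve. Lama2 (chr10:26980036-27619758, minus strand) was at 21.4, 16.3 and 20.6 CPM in control pools and at 4.16, 5.66 and 6.29 CPM in Mttp-IKO pools. The controls were close to each other, and the highest Mttp-IKO pool was far below the lowest control. Lama2 fell 3.63-fold (-1.86 ± 0.215 on the log2 scale, adjusted p = 0.0141, edgeR) and ranked 28 of all 17287 genes by p. The muscle genes summed to 97.4, 778 and 1.41 CPM in control pools 1 to 3, beside 21.4, 16.3 and 20.6 CPM of Lama2, and the part of muscle RNA in the Lama2 difference was not tested. The log2 fold change was -1.81 without control pool 1 (adjusted p = 0.0596, edgeR), -1.99 without control pool 2 (0.00953) and -1.98 without Mttp-IKO pool 3 (0.0113). The call was also lost without control pool 3 (0.0570) or Mttp-IKO pool 2 (0.0914).

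Lamb1 and Lamc1 encode the beta1 and gamma1 chains, which occur together in many laminin trimers. Lamb1 (chr12:31265234-31329644, plus strand) was at 35.2, 35.4 and 40.7 CPM in control pools and at 15.5, 23.0 and 14.6 CPM in Mttp-IKO pools. It fell 2.09-fold without overlap of the genotypes (-1.07 ± 0.203 on the log2 scale, adjusted p = 0.0340, edgeR). The adjusted p for Lamb1 was 0.116 without control pool 1, 0.0480 without control pool 2 and 0.0433 without Mttp-IKO pool 3 (edgeR). It was 0.139 without control pool 3, 0.0860 without Mttp-IKO pool 1 and 0.0914 without Mttp-IKO pool 2. Lamc1 (chr1:153218922-153332786, minus strand) was at 82.8, 58.6 and 70.2 CPM in control pools and at 57.5, 45.0 and 55.4 CPM in Mttp-IKO pools. The lowest control and the highest Mttp-IKO pool nearly touched, and the log2 fold change of -0.42 did not pass the test (95% interval -0.84 to -0.0077, adjusted p = 0.210, edgeR). The ratio of Lamb1 to Lamc1 in reads per kb was 0.355, 0.504 and 0.484 in control pools and 0.225, 0.427 and 0.220 in Mttp-IKO pools. Mttp-IKO pool 2 fell within the controls, and the mean log2 ratio was -1.18 ± 0.28 in control and -1.85 ± 0.54 in Mttp-IKO pools, a difference of -0.68 (two-sided exact permutation p = 0.2, where 0.1 is the lowest possible).

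Other laminin genes place these chains among their alternatives. Of the 7 given here 3 fell, against 3.09% of all genes tested, Lama1 (log2 fold change -1.12, adjusted p = 0.0483, edgeR), Lama4 (-1.18, 0.0241) and Lamb2 (-0.85, 0.0241), and 0 rose, against 0.920%. Lama4 encodes an alpha chain typical of blood vessels, and Lamb2 encodes the beta2 chain. Lama1 lost its call with DESeq2's size factors (adjusted p = 0.0520). Lama5, the alpha chain with the highest level per kb in these livers, was at 35.7, 27.3 and 28.5 CPM in control pools and at 31.1, 40.7 and 33.1 CPM in Mttp-IKO pools (0.20 on the log2 scale, adjusted p = 0.534, edgeR). Lama3, Lamb3 and Lamc3 did not pass the test, with log2 fold changes of -0.70, -0.49 and -0.21.

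The alpha chains are given next as shares of their sum. These shares follow from the levels of the single genes, were not tested and are not separate support for a difference. Lama2 made up 15.9 ± 1.01% of the summed level per kb of the 5 alpha chains in control pools, with 14.8% as the lowest, and 6.37 ± 0.74% in Mttp-IKO pools. Lama5 made up 38.7, 35.5 and 33.1% in control pools and 59.6, 67.7 and 52.8% in Mttp-IKO pools. Neither share overlapped between genotypes. The summed level itself was 7.47 ± 0.67 CPM per kb in control and 5.12 ± 0.48 CPM per kb in Mttp-IKO pools for the alpha chains, and 10.8 ± 0.41 and 6.08 ± 0.76 CPM per kb for the beta chains. The pools of the genotypes were apart in both sums, at a ratio of Mttp-IKO to control of 0.686 for the alpha and 0.563 for the beta chains.

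Nid1 encodes nidogen 1, which binds both the laminin gamma1 chain and collagen IV. Nid1 (chr13:13437602-13512275, plus strand) was at 160, 82.7 and 100 CPM in control pools and at 179, 97.9 and 104 CPM in Mttp-IKO pools. Pool 1 of each genotype was the highest and the genotypes overlapped. The log2 fold change was 0.16 (95% interval -0.57 to 0.88, adjusted p = 0.805, edgeR), and its sign turned with total counts as the only scaling (-0.027) and without control pool 2 (-0.047) or Mttp-IKO pool 1 (-0.18). The related Nid2 was at 11.8 ± 2.55 CPM in control and 7.51 ± 0.24 CPM in Mttp-IKO pools, without overlap, and did not pass the test (adjusted p = 0.106, edgeR).

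Hspg2 encodes perlecan, a large heparan sulfate proteoglycan that binds growth factors as well as laminin and nidogen. Hspg2 (chr4:137468769-137570630, plus strand) was at 328, 259 and 287 CPM in control pools and at 155, 175 and 177 CPM in Mttp-IKO pools. No pools overlapped, and Hspg2 fell 1.72-fold, the least of the 5 genes that passed (-0.78 ± 0.168 on the log2 scale, adjusted p = 0.0456, edgeR). The call was lost without control pool 1 (adjusted p = 0.168, edgeR) and kept without control pool 2 (0.0481) or Mttp-IKO pool 3 (0.0352). It was also lost without control pool 3 (0.163), Mttp-IKO pool 1 (0.0959) or Mttp-IKO pool 2 (0.148).

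In level per kb of gene length, which allows genes to be compared, Col18a1 was first in both genotypes, at 138 ± 29.1 CPM per kb in control and 200 ± 34.1 CPM per kb in Mttp-IKO pools. It was followed in control pools by Col4a1 (34.0), Col4a2 (21.8), Hspg2 (20.4), Nid1 (18.9), Lamc1 (8.53), Lamb1 (3.74), Col15a1 (2.37), Lama2 (1.19) and Col4a5 (0.871 CPM per kb). The order among Col4a2, Hspg2 and Nid1 was not the same in all control pools, and the ranges of Lama2 and Col4a5 overlapped. In Mttp-IKO pools Nid1 (21.0) came next to Col18a1, followed by Col4a1 (18.3), Hspg2 (11.8), Col4a2 (11.1), Lamc1 (6.36), Lamb1 (1.79), Col4a5 (1.12), Col15a1 (0.502) and Lama2 (0.329 CPM per kb). There the ranges of Nid1 and Col4a1, of Hspg2 and Col4a2, and of Col15a1 and Lama2 overlapped, so that these neighbours were not separated.

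Col18a1 also had the largest share of the summed level of the 10 genes in every pool. The sum was 250.2 ± 6.46 CPM per kb in control and 272 ± 25.4 CPM per kb in Mttp-IKO pools, a ratio of 1.09. Without Col18a1 the sum of the other 9 genes was 136, 90.3 and 109 CPM per kb in control pools and 82.4, 67.2 and 67.4 CPM per kb in Mttp-IKO pools. All Mttp-IKO pools were below all controls, at a ratio of means of 0.647. The share of Col18a1 in the sum of 10 was 44.5, 64.9 and 56.0% in control pools and 66.0, 76.7 and 76.3% in Mttp-IKO pools. The sum of 9 leaves out the gene with the highest log2 fold change. Sums and shares alike follow from the levels above and are not separate support for a difference.

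**Figure D3:**
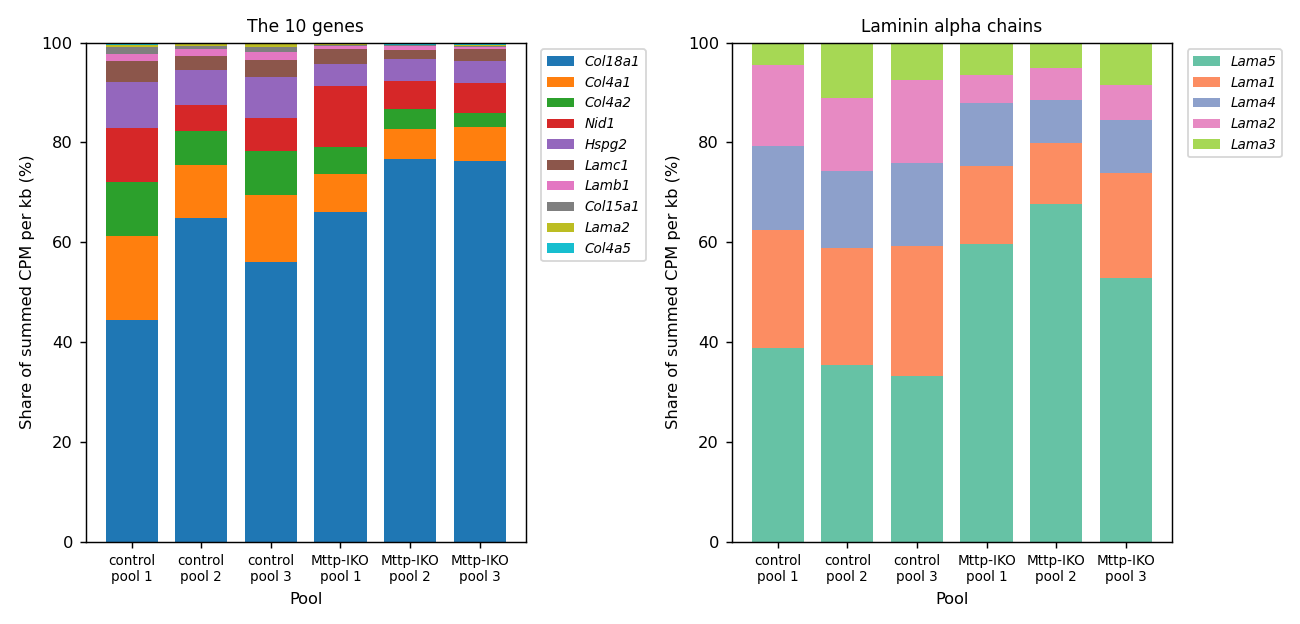
Share of each gene in the summed level per kb, in percent, for the 10 genes (left) and the 5 laminin alpha chains (right), with 1 bar per pool. The Col18a1 share is 44.5 to 64.9% in control and 66.0 to 76.7% in Mttp-IKO pools, and the Lama5 share is 33.1 to 38.7% in control and 52.8 to 67.7% in Mttp-IKO pools.

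Among 37 other genes of the basement membrane and its receptors, of which 36 passed the filter, 8 fell and 0 rose (0 rose with DESeq2 or limma-voom, and 1 was higher at an unadjusted p under 0.05 in edgeR), again against 3.09% and 0.920% of all genes. Their median log2 fold change was -0.50, and in 18 of them all Mttp-IKO pools were below all controls, against 16.5% of all genes tested (31.0% in either order). Linkers and glycoproteins gave 4 of the 8. Sparc, which encodes osteonectin, a collagen-binding protein, was at 194, 91.7 and 143 CPM in control pools and at 47.0, 36.0 and 46.9 CPM in Mttp-IKO pools (-1.72 on the log2 scale, adjusted p = 0.0231, edgeR). Pxdn encodes peroxidasin, which makes the sulfilimine bonds between collagen IV trimers, and went from 37.4 ± 3.11 to 20.8 ± 0.97 CPM (-0.85, 0.0241). Fbln1, which encodes fibulin 1, fell by 1.69 on the log2 scale (adjusted p = 0.0287). Frem1 encodes a basement membrane protein of the Fras/Frem complex and had the largest change of the list. It went from 4.21 ± 1.41 to 0.508 ± 0.23 CPM (log2 fold change -3.05, adjusted p = 0.0186, edgeR). Its Mttp-IKO pools were at 0.258, 0.720 and 0.545 CPM, so the size of this change rests on few reads. Fras1 (0.05) and Frem2 (-0.46) did not pass the test.

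Of 11 receptor genes 1 fell, Ddr2, a collagen receptor tyrosine kinase known from fibroblasts and stellate cells (log2 fold change -0.91, adjusted p = 0.0364, edgeR). Of the integrin chains, which bind collagen and laminin, 0 passed in edgeR, with log2 fold changes near 0 for Itgb1 (-0.05, adjusted p = 0.884), Itga1 (-0.17, 0.495) and Itga3 (0.03, 0.942) and larger ones, each with an unadjusted p under 0.05, for Itga2 (1.16, 0.168), Itga6 (-1.11, 0.139), Itga9 (-0.80, 0.081) and Itgb4 (-0.66, 0.152). Dag1, which encodes the laminin receptor dystroglycan, had a log2 fold change of 0.30 (adjusted p = 0.345). As with the 10 genes, the calls of this list changed with the pools used, with 0 of 36 passing when control pool 1, control pool 3, Mttp-IKO pool 1 or Mttp-IKO pool 2 was left out (14 to 18 at an unadjusted p under 0.05), and 9 and 10 passing without control pool 2 and Mttp-IKO pool 3.

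**Figure D4:**
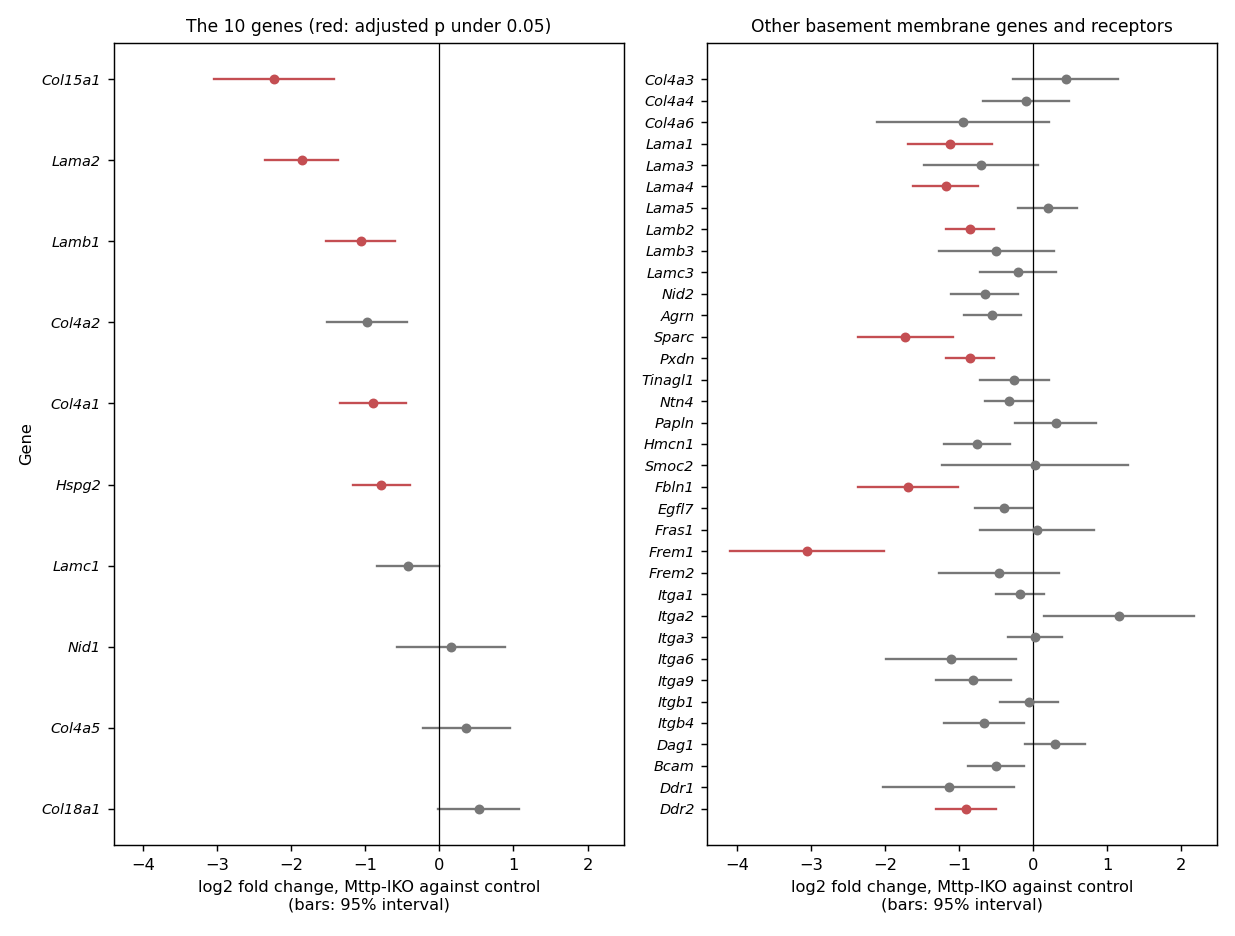
Log2 fold change, Mttp-IKO against control, with its 95% interval from edgeR, for the 10 genes (left) and other basement membrane and receptor genes (right), with genes of adjusted p under 0.05 in red. Intervals of the 5 called genes on the left lie wholly below 0, from Col15a1 at -2.24 to Hspg2 at -0.78, and no gene is called above 0. Those of Col4a2 and Lamc1, which are not called, also lie wholly below 0.

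In whole liver RNA, fewer cells of a type and less RNA per cell cannot be told apart, so markers of the cells that could supply these genes are given beside them. Their counts are to be read beside the 3.09% of all genes tested that fell and the 0.920% that rose. Of 10 sinusoidal endothelial markers 0 passed the test in either direction (0 at an unadjusted p under 0.05 in edgeR, and 0 with DESeq2 or limma-voom), with a median log2 fold change of -0.03 and summed levels of 572 to 653 CPM in control and 588 to 654 CPM in Mttp-IKO pools. Stab2, a scavenger receptor of these cells, had a log2 fold change of 0.15 (adjusted p = 0.70) and Lyve1 of -0.80 (0.27). Of 10 stellate cell markers 3 fell, Lrat (-1.71), Colec11 (-1.65) and Pdgfrb (-1.20), with a list median of -0.50 and summed levels of 917 to 1091 CPM in control and 660 to 783 CPM in Mttp-IKO pools. Of 7 markers of smooth muscle and portal fibroblasts 4 fell (Myh11, Acta2, Tagln and Fbln2), with a median of -1.62 and summed levels of 62.4 to 103 CPM in control and 19.7 to 29.2 CPM in Mttp-IKO pools. Of 6 markers of capillary and vascular endothelium 1 fell, Ly6a, with summed levels of 174 to 215 CPM in control and 136 to 140 CPM in Mttp-IKO pools. DESeq2 called 4 stellate, 7 smooth muscle and portal fibroblast and 3 capillary markers lower. With limma-voom these counts were 2, 2 and 1. Calls of all marker lists are given with no pool left out.

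The hepatocyte list, beside which Col18a1 is set, had a median log2 fold change of 0.57, and 9 of its 10 genes were higher in Mttp-IKO, although 0 passed the test in edgeR (5 at an unadjusted p under 0.05) or limma-voom and 4 passed in DESeq2. Its summed levels were 65879 to 99784 CPM in control and 125280 to 176350 CPM in Mttp-IKO pools. The larger part of the sum in every pool was Alb, at 54150 CPM in control and 104750 CPM in Mttp-IKO by mean. Ttr was lower in every Mttp-IKO pool than in any control pool (log2 fold change -0.55, adjusted p = 0.29, edgeR). Of 6 markers of recruited macrophages 4 fell (Trem2, Itgax, Ccr2 and Lyz2), with summed levels of 404 to 1084 CPM in control and 163 to 214 CPM in Mttp-IKO pools, with a median log2 fold change of -2.32. DESeq2 called 5 of them lower and limma-voom 4. Of 6 Kupffer cell markers 3 were lower and 3 higher, with a median of -0.03 and summed levels of 320 to 490 CPM in control and 244 to 583 CPM in Mttp-IKO pools. Timd4 rose (1.16), and Adgre1, lower in every Mttp-IKO pool than in any control pool, was at -0.98 (adjusted p = 0.09, edgeR) and Cd5l at -0.74 (0.21), with 1 called lower and 1 higher in DESeq2. Of 6 cholangiocyte markers 0 passed the test in edgeR (2 lower at an unadjusted p under 0.05) or limma-voom and 1 in DESeq2, with a median of -0.53. Of 4 mesothelial markers 0 passed with any of these tools or at an unadjusted p under 0.05 in edgeR, with a median of -0.35. No marker of these 9 lists was at 0 in any pool. The part of these cell types in the levels of the 10 genes was not tested.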

How the data were processed

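Livers of 3 control and 3 Mttp-IKO pools were compared, with genotype and pool number taken from the labels. The authors aligned reads to GRCm38 (Ensembl release 76) with STAR 2.5.1a, assigned unique, unambiguous reads to genes with featureCounts 1.4.6-p5, and deposited the read count per gene of each pool without normalization. They also deposited CPM (counts scaled to an equal total in each pool) and RPKM (CPM divided by gene length in kb), which carry nothing beyond the counts and were left aside. The table of all pools repeats these counts for 40481 of 41388 genes, with 276 repeated lines that were dropped. Whether the strand was used in counting is not given in the sources used here.

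Genes were kept by filterByExpr (minimum count 10, minimum total 15), scaled by TMM and tested in edgeR 4.0.16 (glmQLFit and glmQLFTest, R 4.3.3) on all 17287 genes, with Benjamini-Hochberg adjustment and a threshold of 0.05. CPM printed are TMM-scaled, and 0 reads allow up to 3 reads (0.0828 to 0.119 CPM, counting error only). Ratios of reads per kb within a pool were compared by exact permutation. Every pair of pools of 1 genotype differed by more than sampling noise. Alternatives were other scalings and filters, DESeq2 1.42.0, limma-voom 3.58.1, robust dispersion, a block for the replicate number, a correction for the trend with gene length (loess span 0.3) and leaving out each pool.

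The 10 genes and all lists were chosen with earlier results of these data known. Named genes are the 10, the genes of the other list that passed the test or are partner chains, and a few markers and receptors named for illustration after their values were seen. Of the other list, 1 gene is counted but not reported singly here. Promoter windows came from RefSeq (GRCm38.p6). Figures were drawn with matplotlib 3.10.9.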

Additional observations from a re-analysis of the deposited data

How the results depend on the processing

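Over 11 alternatives with all pools, 3 to 6 of the 10 genes passed, and with each pool left out in turn 0 to 5 passed (0 to 10 of the other 36 genes, 0 to 892 of all genes). Over the same 17 fits, 9 of the 10 genes kept their direction and Nid1 was lower in 3, at -0.027 with total counts, -0.047 without control pool 2 and -0.18 without Mttp-IKO pool 1. Its log2 fold change ranged from -0.18 to 0.46 over the fits without 1 pool. The difference in the log2 ratio of Col4a1 to Col4a2 ranged from -0.13, without Mttp-IKO pool 3, to 0.25. Over all genes, DESeq2's Wald test called 1995 and limma-voom 428, against 694. Total counts as the only scaling moved the median of all genes from 0.0057 to -0.17, and relative to that median Nid1 was at 0.15. Removing the trend with gene length moved the median to 0.13, and the same 5 genes passed. The replicate number as a block left 3 of the 10 genes (Col15a1, Lamb1 and Lama2) in place of 5, with Col4a1 at an adjusted p of 0.0598, Hspg2 at 0.0826 and, in the other list, Ddr2 at 0.0509. Deviations of pools with the same number correlated at 0.14, 0.11 and 0.007, and since not all of them were over 0.1 the numbers were not taken to pair the pools. Every control pool, but only 2 of 3 Mttp-IKO pools, correlated best with its own number, as a hint from the data and not the design. Depth did not limit the 10 genes, the lowest count being 53 reads.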
